A study of Mus musculus with 6 samples.

Results

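The 6 genes described here are the subunit genes of respiratory complexes III, IV and V that lie in mitochondrial DNA. They are cytochrome b (mt-Cytb), the cytochrome c oxidase subunits mt-Co1, mt-Co2 and mt-Co3, and the ATP synthase subunits mt-Atp6 and mt-Atp8. They were chosen by gene symbol, and all 6 were found among the 16095 genes of the deposited table, with values in 6 libraries. RNA came from sorted kidney epithelial cells of mice, with 3 libraries per group. Control mice were Trf1+/+ and the others Trf1lox/lox (labelled Trf1 flox/flox in the sample sheet and called Terf1_flox here). Trf1 is the telomere-binding shelterin protein encoded by Terf1. Mice of both groups carried a KFP reporter (KFP+/t) and an inducible Cre (Cre+/t) under the Ksp-cadherin promoter, so Cre and tamoxifen do not distinguish the groups. Males and females received tamoxifen from an age of 6 to 8 weeks, 3 times a week for 8 weeks, and cells were sorted on EpCAM and the reporter. The sources used here do not say how many mice went into a library, so the p-values measure only the spread between these libraries.

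Mitochondrial DNA encodes only a core of the respiratory chain, and nuclear genes supply the remaining subunits and the proteins of mitochondrial transcription and translation, while the ribosomal and transfer RNAs of mitochondrial translation come from mitochondrial DNA. Complex III passes electrons from ubiquinol to cytochrome c, complex IV passes them on to oxygen, and complex V (ATP synthase) uses the resulting proton gradient to make ATP. Distal nephron segments such as the thick ascending limb reabsorb salt with the sodium pump and are rich in mitochondria. Mitochondrial mRNAs are cut from long precursors transcribed from both strands, most of them from the strand that carries all 6 genes here, and receive short poly(A) tails.

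Sequences of the reference transcripts (GENCODE M21, build GRCm38) are shown first because they bear on what a read count of these genes can hold. mt-Atp8 is the shortest of the 6, at 204 bases, and its last 43 bases are also the first 43 bases of mt-Atp6, so reads over that stretch belong to both genes. The overlap is in capitals.
mt-Atp8: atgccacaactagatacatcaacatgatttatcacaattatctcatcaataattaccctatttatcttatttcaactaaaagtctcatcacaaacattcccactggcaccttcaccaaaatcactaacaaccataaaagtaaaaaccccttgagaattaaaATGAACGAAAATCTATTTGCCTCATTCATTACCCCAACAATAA
mt-Atp6: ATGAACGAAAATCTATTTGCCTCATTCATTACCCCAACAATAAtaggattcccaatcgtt

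mt-Cytb and mt-Co3 end 1 base after their last full codon. That base is a T (capitals below, the last 30 bases of each transcript), which the poly(A) tail completes to a stop codon, while mt-Co1, mt-Co2, mt-Atp6 and mt-Atp8 end in TAA.
mt-Cytb: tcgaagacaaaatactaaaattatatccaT
mt-Co3: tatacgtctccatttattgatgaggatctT

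Nuclear DNA holds old insertions of mitochondrial DNA, and several are annotated as pseudogenes. The first 60 bases of mt-Co2 are shown with the same window of 2 of its annotated nuclear copies. Bases that differ from mt-Co2 are in capitals. Gm28661 has none over this window, and Gm13341 has 2.
mt-Co2: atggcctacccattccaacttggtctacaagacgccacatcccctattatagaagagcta
Gm28661: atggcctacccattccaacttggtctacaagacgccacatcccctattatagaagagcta
Gm13341: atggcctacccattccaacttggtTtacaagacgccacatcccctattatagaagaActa

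Gm28661 matched mt-Co2 over 681 of its 684 bases without a mismatch. Gm10925 matched mt-Atp6 over 678 of 681 bases and Gm28437 matched mt-Co3 over 783 of 784 bases, both without a mismatch. mt-Co1 had a copy of its last 483 bases with 1 mismatch (Gm29216) and a copy of all 1545 bases with 37 mismatches (Gm13340). The closest copy of mt-Cytb, Gm11410, differed at 81 of 1142 aligned bases, and mt-Atp8 had no annotated copy beyond the 43 bases it shares with mt-Atp6. Of all stretches of 50 bases in a transcript, the share also present in an annotated nuclear transcript was 100% for mt-Co2, 99.9% for mt-Co3, 99.5% for mt-Atp6, 51.1% for mt-Co1 and 0% for mt-Cytb and mt-Atp8. Insertions that are not annotated as genes were not searched. The handling of reads that match several places was not given in the sources used here. The levels of mt-Co2, mt-Co3, mt-Atp6 and part of mt-Co1 are therefore uncertain.

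The libraries held 13582140 to 17680986 reads over the deposited genes, and the 13 mitochondrial mRNAs took 9.32% to 11.7% of them in controls and 14.3% to 18.7% in Terf1_flox libraries. Terf1 was measured at 529.6, 486.1 and 663.9 normalized counts in controls and at 62.0, 24.6 and 25.3 in Terf1_flox libraries, so the labels match the gene (15.0-fold lower, log2 fold change −3.99 ± 0.61, limma adjusted p = 0.0814). Epcam, the gene of the surface protein used in the sort, held 4510.2, 5087 and 4416 normalized counts in controls and 1831, 1434 and 2977 in Terf1_flox libraries, with no overlap (log2 fold change −1.23 ± 0.29, limma adjusted p = 0.139, DESeq2 adjusted p = 0.00748). Thick ascending limb markers dominated, as sums of 6 genes between 231146 and 281765 in controls and between 193492 and 207239 in Terf1_flox libraries. A sum follows its most abundant genes: of these 6, 4 had a log2 fold change above 0 and 2 below (median 0.11). Sums of 9 of 10 proximal tubule markers (Slc5a2 was not among the genes of the table) lay between 1673 and 3450 in controls. In Terf1_flox libraries these sums lay between 3825 and 12616, with the highest value in Terf1_flox replicate 3. Of the 8 proximal tubule markers tested, 5 had a log2 fold change above 0 and 3 below. Sums of 8 intercalated cell markers ran from 5018 to 12269 in controls and from 1653 to 5140 in Terf1_flox libraries. These sums overlapped, but of the 8 markers 0 had a log2 fold change above 0 and 8 below (median −2.07). Sums of 6 distal convoluted and connecting tubule markers ran from 67945 to 138287 and from 72235 to 127389. Of these 6, 4 were above 0 and 2 below (median 0.07). Sums of 5 of 6 principal cell markers ran from 587 to 1843 and from 339.7 to 1654. Of these 5, 1 was above 0 and 4 below (median −1.01). Of 5 podocyte and 8 endothelial markers 0 were in the table, and of 8 fibroblast and pericyte markers 1 was. The 4 macrophage and monocyte markers in the table, of 10, summed to 41.9 to 138 in controls and 25.7 to 139 in Terf1_flox libraries, the 2 lymphocyte markers of 7 to 4.74 to 17.2 and 19.6 to 29.3, and the 5 erythroid markers of 7 to 441 to 833 and 151 to 610. Fewer cells of a type and less RNA per cell cannot be told apart in such libraries, and the part of the Epcam and marker differences in the results below was not tested.

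The recorded levels of the 6 transcripts differed widely, with mt-Cytb highest and mt-Co2 lowest. Compared per length, as normalized counts per kilobase (kb) of transcript in control libraries, mt-Cytb stood at 569539 ± 136834 (SD, n = 3), followed by mt-Atp8 at 367012 ± 106442. The ranges of these 2 overlapped. mt-Co1 came next at 120599.9 ± 14104 per kb, 3.04-fold below mt-Atp8 and with no overlap. mt-Atp6 (26504 ± 5598 per kb) and mt-Co3 (18695 ± 7048 per kb) overlapped each other and lay below mt-Co1. mt-Co2 was lowest at 1379 ± 513 per kb, 13.6-fold below mt-Co3. The order in Terf1_flox libraries was the same, and there mt-Atp6 (56906 ± 14445 per kb) and mt-Co3 (33960.3 ± 5051 per kb) did not overlap.

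The 3 lowest of the 6 were the ones whose sequence is almost wholly shared with an annotated nuclear copy. Across all 13 mitochondrial mRNAs, 5 had over 90% of their 50-base stretches in a nuclear transcript (mt-Co2, mt-Co3, mt-Atp6 and the complex I genes mt-Nd3 and mt-Nd4l). These were the 5 lowest per kb in control libraries, and 4 of the 5 lowest in Terf1_flox libraries, where mt-Nd5 lay below mt-Atp6. The 13 genes share their libraries and precursor RNA, and the part of the nuclear copies in these levels was not tested. The reads of near-identical copies recorded in the table were few, at 0.0392% to 1.13% of the reads of mt-Atp6, 0.0167% to 0.58% of those of mt-Co3 and 0.153% to 0.376% of those of mt-Co1. For mt-Co2 they came to 45.9% to 57.3%, nearly all from Gm13341, the copy that has 16 mismatches over its length (466 normalized counts on average in control libraries, against 0.293 for the identical copy Gm28661).

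**Figure D1:**
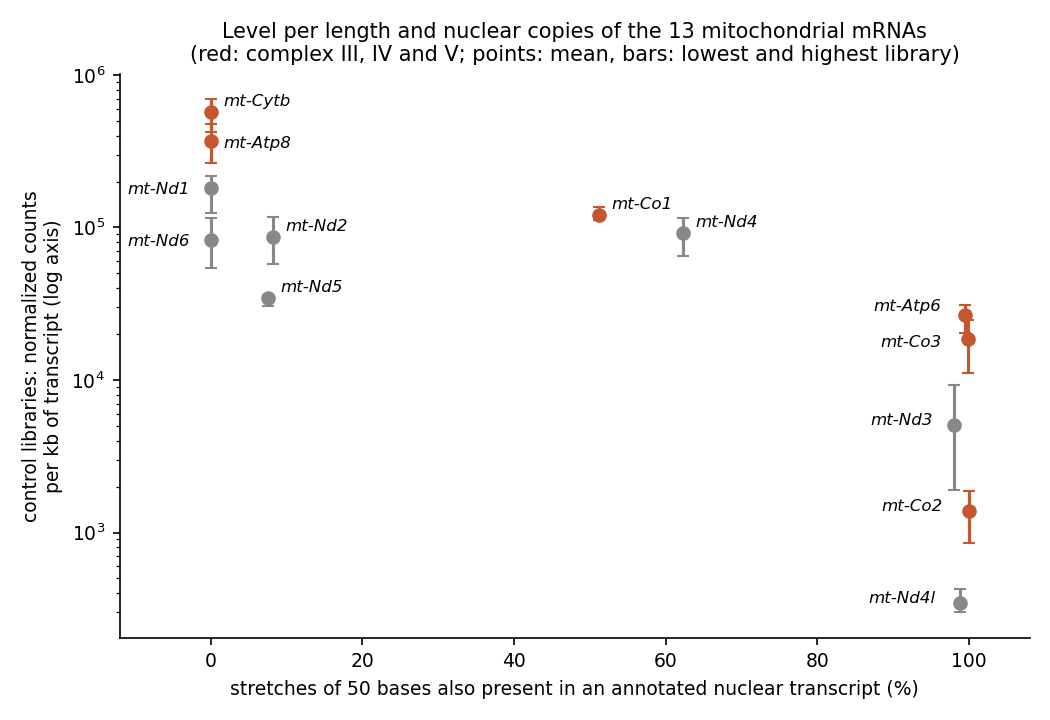
Normalized counts per kb of transcript in control libraries (log axis; mean of 3 libraries, bars from the lowest to the highest library) against the percent of 50-base stretches of each mitochondrial mRNA that also occur in an annotated nuclear transcript. mt-Cytb and mt-Atp8, with 0% shared, are highest, and mt-Atp6, mt-Co3 and mt-Co2, with over 99% shared, are the lowest of the 6 red points.

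Terf1_flox libraries held more RNA of 5 of these 6 genes than any control library, between 1.82 and 2.59 times the control mean, and mt-Co1 was the exception. Ranges that do not overlap and lie higher in Terf1_flox libraries were found for 10.3% of the 14822 genes tested. In limma 0 of the 6 genes passed an adjusted p of 0.05 over all genes, a threshold passed by 0% of genes. At an unadjusted p below 0.05, 5 of the 6 were higher (5.7% of all genes tested were). edgeR also called 0 of the 6 and 0% of genes (5 of the 6 had an unadjusted edgeR p below 0.05, as had 13.4% of all genes tested). DESeq2 called 4 higher, mt-Cytb, mt-Co3, mt-Atp6 and mt-Atp8, where it called 2.21% of genes higher and 5.21% in all. The median log2 fold change of the 6 was 0.93, against −0.077 over all genes tested. Among alternative settings, limma called mt-Cytb, mt-Atp6 and mt-Atp8 higher when only genes with a mean of at least 50 were tested (0.372% of genes called higher, 0.855% lower, 1.23% in all). It called none of the 6 with equal library totals (0.00675% higher, 0.297% lower, 0.304% in all), with equal totals of the genes outside mitochondrial DNA (0.0675%) or with quantile normalization (0.054%, all lower).

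**Figure D2:**
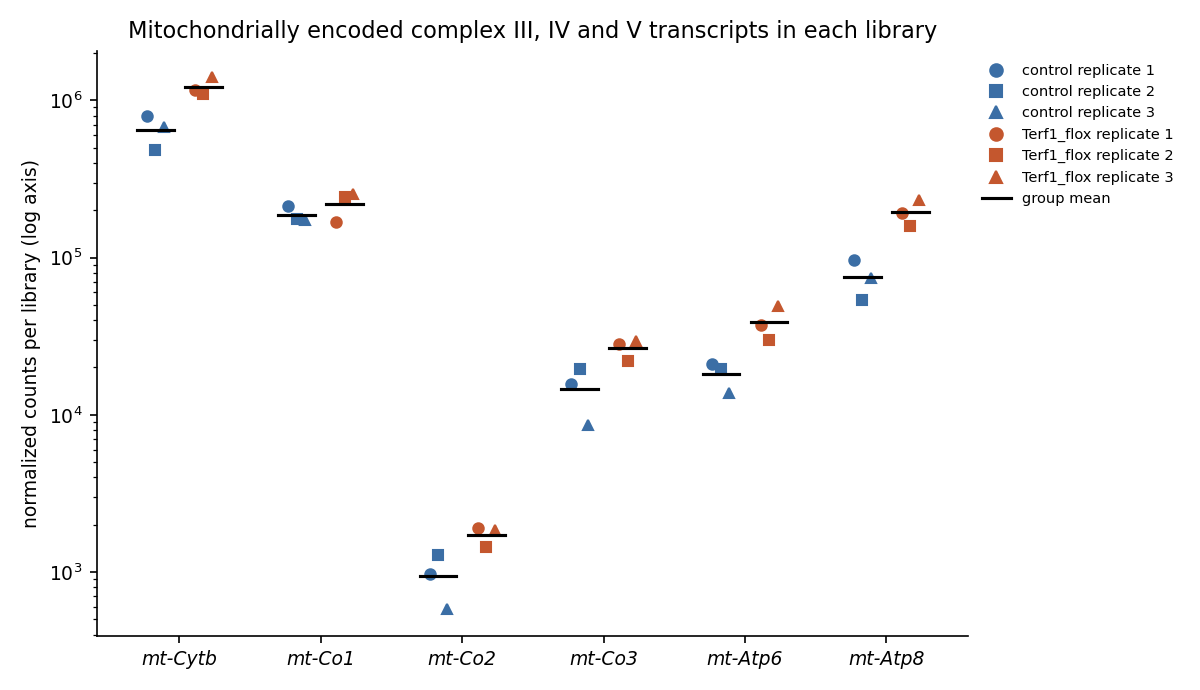
Normalized counts of the 6 genes in each library (log axis), controls in blue, Terf1_flox in red, symbols for replicates and black lines for group means. The groups are apart for all genes except mt-Co1, whose Terf1_flox replicate 1 (167075) lies below the 3 control libraries.

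Complex III has mt-Cytb as its only mitochondrially encoded subunit, the protein that holds both haem b groups and the sites where ubiquinol is oxidised and ubiquinone reduced. Control libraries held 792779.8, 483238 and 678639 normalized counts and Terf1_flox libraries 1168164, 1100533 and 1399535. All Terf1_flox values were above all control values, and control replicate 2 was lowest. The means were 651552 ± 156539 and 1222744 ± 156795 (SD, n = 3 each), 1.88 times as high in Terf1_flox libraries. mt-Cytb thus had a log2 difference of 0.93 ± 0.17 (limma adjusted p = 0.0926, DESeq2 adjusted p = 0.00387). With quantile normalization the value was 0.32. By itself mt-Cytb took 3.73% to 5.61% of all reads in controls and 6.97% to 9.06% in Terf1_flox libraries.

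mt-Co1 encodes the catalytic subunit of complex IV, which carries the haem a3 and copper centre where oxygen is reduced. It held 211427, 175296 and 172258 normalized counts in controls and 167075, 241773 and 252382 in Terf1_flox libraries. The groups overlapped, because Terf1_flox replicate 1 was the lowest of all 6 libraries while the other Terf1_flox libraries were the highest. Means were 186327 ± 21791 and 220410.1 ± 46493 (SD, n = 3 each), and the log2 fold change of mt-Co1 was 0.23 ± 0.17 (limma adjusted p = 0.586). The sign turned with quantile normalization (−0.31) and with the GC content and length correction given below.

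mt-Co2 encodes the subunit of complex IV that receives electrons from cytochrome c. It was recorded at 968, 1282 and 581 normalized counts in controls and at 1909, 1432 and 1845 in Terf1_flox libraries. The groups were apart by a narrow margin, between control replicate 2 and Terf1_flox replicate 2. Means were 944 ± 351 and 1729 ± 259 (SD, n = 3 each). mt-Co2 thus had a log2 difference of 0.93 ± 0.35 (limma adjusted p = 0.277, DESeq2 adjusted p = 0.137).

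mt-Co3, the third core subunit of complex IV, held 15793, 19526 and 8652 normalized counts in controls and 28267, 22108 and 29499 in Terf1_flox libraries. Again control replicate 2 and Terf1_flox replicate 2 were nearest each other and control replicate 3 was lowest. Means were 14657 ± 5525 and 26625 ± 3959.8 (SD, n = 3 each). mt-Co3 thus had a log2 difference of 0.93 ± 0.28 (limma adjusted p = 0.215, DESeq2 adjusted p = 0.0499). The ratio of mt-Co2 to mt-Co3 reads stayed between 0.0613 and 0.0675 in all 6 libraries.

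mt-Atp6 encodes subunit a of ATP synthase, which forms the proton path beside the rotating c-ring. It held 20969, 19442 and 13736 normalized counts in controls and 37106, 29844 and 49310.03 in Terf1_flox libraries, with no overlap. Means were 18049 ± 3812 and 38753 ± 9837 (SD, n = 3 each). mt-Atp6 thus had a log2 difference of 1.10 ± 0.23 (limma adjusted p = 0.115, DESeq2 adjusted p = 0.00139).

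mt-Atp8 encodes a small membrane subunit of the ATP synthase stator and is translated from the same mRNA as mt-Atp6. It had the highest fold of the 6, with 96984, 53579 and 74048 normalized counts in controls and 190595, 159026 and 232221 in Terf1_flox libraries. The lowest Terf1_flox library was well above the highest control library. Means were 74870.4 ± 21714 and 193948 ± 36712 (SD, n = 3 each), 2.59 times as high in Terf1_flox libraries. mt-Atp8 thus had a log2 difference of 1.40 ± 0.22 (limma adjusted p = 0.0814, DESeq2 adjusted p = 1.93e-05). Although the pair shares an mRNA, mt-Atp8 had 2.76 to 5.39 times the reads of mt-Atp6 on a shorter transcript (204 against 681 bases).

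All 6 transcripts are poor in G and C, from 31.9% GC for mt-Atp8 to 39.9% for mt-Co1, against a median of 49.6% over the tested genes with a reference transcript. Between 0.0897% (mt-Atp8) and 6.41% (mt-Co1) of those genes had a lower GC content, and 0.469% had a shorter transcript than mt-Atp8. With GC content and transcript length regressed out of each library, the median log2 fold change of the 6 was 0.19. mt-Cytb was then at 0.47, mt-Co3 at 0.24, mt-Atp6 at 0.22, mt-Co2 at 0.16, mt-Co1 at −0.082 and mt-Atp8 at −0.11 (limma adjusted p from 0.262 to 0.911). The differences between groups were thus smaller once base composition and length were in the fit, and mt-Atp8 lies at the edge of the range on which that correction rests.

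Read in their order along mitochondrial DNA, the genes did not all differ between groups by the same amount. The stretch that runs from mt-Co2 through mt-Atp8 and mt-Atp6 to mt-Co3 had log2 fold changes of 0.93, 1.40, 1.10 and 0.93, and mt-Co1, just before it on the same strand, had 0.23. Next on the other side of mt-Co1 lies mt-Nd2, at 0.97 ± 0.25. The 2 ribosomal RNAs mt-Rnr1 (0.53 ± 0.32) and mt-Rnr2 (0.57 ± 0.22) overlapped between groups. Among the 7 complex I genes the log2 fold changes ran from 0.42 for mt-Nd5 to 0.97 for mt-Nd2, with a median of 0.70. Of the 7, 5 were apart and higher in Terf1_flox libraries, as were 10.3% of all genes tested. In limma 0 of the 7 passed. At an unadjusted p below 0.05, 4 were higher (5.7% of all genes tested), and DESeq2 called 2 higher (2.21%). With GC content and length corrected the median of the 7 was 0.017, from −0.52 for mt-Nd6 to 0.33 for mt-Nd2.

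**Figure D3:**
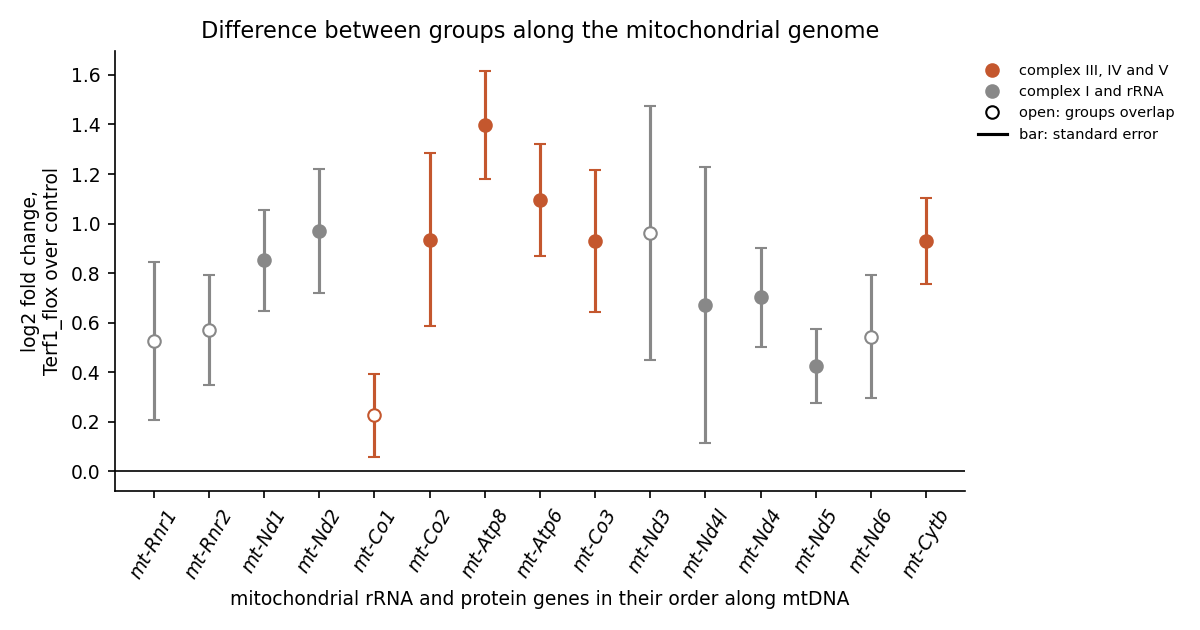
Log2 fold change (Terf1_flox over control, with its standard error) of the 2 ribosomal RNA and 13 protein genes in their order along mtDNA, with the 6 genes of complexes III, IV and V in red and open symbols where the groups overlap. mt-Atp8 is highest at 1.40 and mt-Co1 lowest at 0.23.

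The summed reads of the 6 genes were 8.06%, 5.81% and 6.79% of all reads in controls and 10.6%, 9.85% and 12.7% in Terf1_flox libraries. The means, 6.89% ± 1.13 and 11.0% ± 1.49 (SD, n = 3 each), differed by 4.16 percentage points with no overlap (exact two-sided permutation p = 0.1, the smallest that 3 against 3 libraries allow). Most of these summed reads were of mt-Cytb. It alone held 5.61%, 3.73% and 4.86% of all reads in controls and 7.74%, 6.97% and 9.06% in Terf1_flox libraries. Set against the complex I genes of the same libraries, the sums of the 6 genes overlapped between groups. The log2 ratio of the summed reads was 1.13, 0.29 and 1.42 in controls and 0.91, 1.15 and 1.09 in Terf1_flox libraries (exact permutation p = 0.9). The mean difference of 0.10 turned to −0.23 without control replicate 2.

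Shares within the mitochondrial mRNAs do not depend on how libraries are scaled to each other, and there mt-Co1 was lower and mt-Atp8 higher in all Terf1_flox libraries. mt-Co1 made up 12.7%, 12.8% and 13.2% of the reads of the 13 mRNAs in control libraries, a narrow range, and 6.84%, 10.7% and 8.74% in Terf1_flox libraries. The means of 12.9% ± 0.271 and 8.76% ± 1.94 (SD, n = 3 each) were apart in all libraries (exact permutation p = 0.1, 0.3 adjusted over the 6 genes). mt-Atp8 made up 5.84%, 3.91% and 5.69% in controls and 7.8%, 7.05% and 8.04% in Terf1_flox libraries, also without overlap (means 5.15% ± 1.07 and 7.63% ± 0.519, SD, n = 3 each; exact permutation p = 0.1, 0.3 adjusted). These shares are not corrected for GC content and length. With that correction the log2 fold change of mt-Atp8 (−0.11) was the lowest of the 6, below mt-Cytb (0.47). The higher standing of mt-Atp8 among them thus turned. Corrected, mt-Co1 (−0.082) stayed below mt-Cytb, mt-Co2, mt-Co3, mt-Atp6, mt-Nd1, mt-Nd2, mt-Nd4 and mt-Nd5. It lay above mt-Atp8, mt-Nd3 (−0.31), mt-Nd4l (−0.38) and mt-Nd6 (−0.52), so mt-Co1 was no longer the lowest of the 13.

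The other 4 shares overlapped between groups. mt-Cytb made up 47.8%, 35.3% and 52.2% in controls and 47.8%, 48.8% and 48.5% in Terf1_flox libraries, so its share was spread by control replicate 2 and nearly constant in Terf1_flox libraries. mt-Atp6 averaged 1.25% ± 0.183 and 1.52% ± 0.193, mt-Co3 1.01% ± 0.384 and 1.05% ± 0.0927, and mt-Co2 0.0655% ± 0.0253 and 0.0685% ± 0.00836 (SD, n = 3 each; exact permutation p from 0.2 to 0.8).

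**Figure D4:**
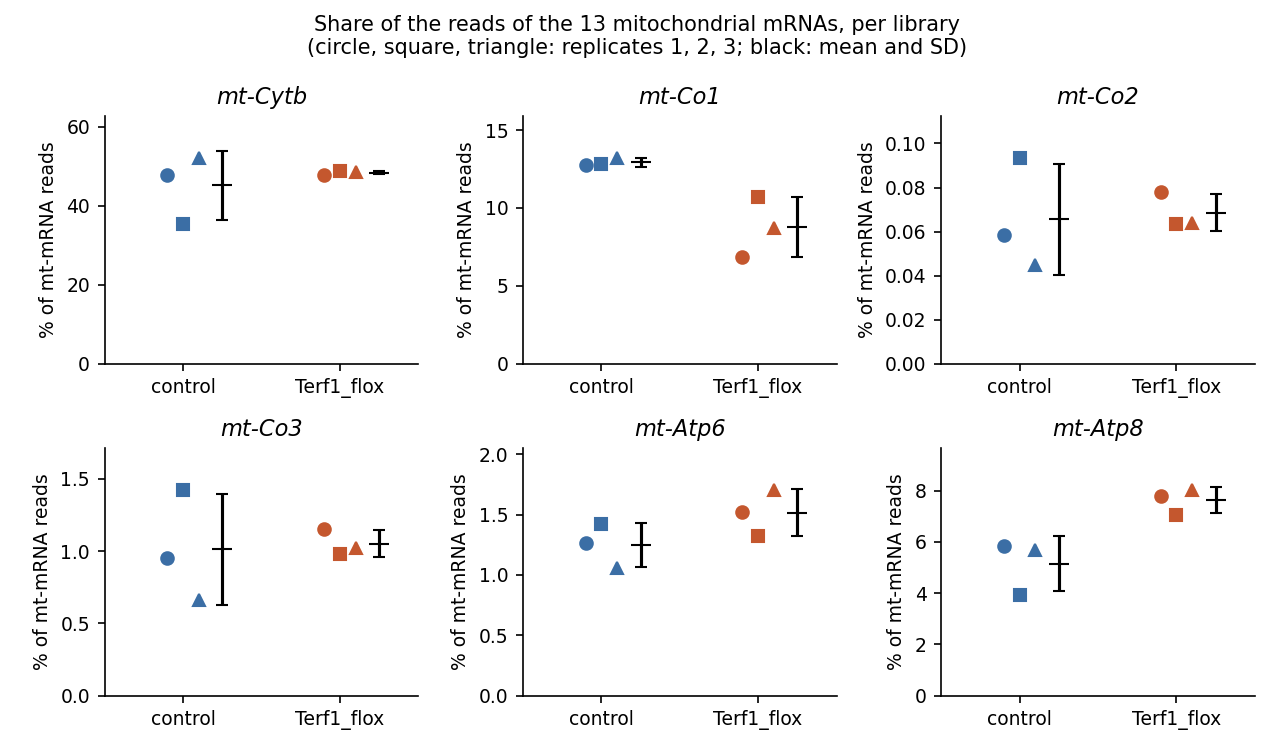
Share of each of the 6 genes in the reads of the 13 mitochondrial mRNAs, in percent, per library (circle, square and triangle for replicates 1, 2 and 3), with group means and SD in black and each vertical axis starting at 0. The mt-Co1 share is lower in all Terf1_flox libraries (at most 10.7%, against at least 12.7%), the mt-Atp8 share is higher in all of them, and the other 4 overlap.

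Of 5 ratios between pairs of the 6 genes, chosen after the values were seen, 2 did not overlap, those that set mt-Co1 or mt-Atp8 against mt-Cytb. mt-Cytb had 3.75, 2.76 and 3.94 times the reads of mt-Co1 in controls and 6.99, 4.55 and 5.55 times in Terf1_flox libraries, with no overlap (exact permutation p = 0.1, 0.25 adjusted over 5 ratios). mt-Atp8 had 0.122, 0.111 and 0.109 times the reads of mt-Cytb in controls and 0.163, 0.144 and 0.166 times in Terf1_flox libraries (exact permutation p = 0.1, 0.25 adjusted), a direction that the corrected log2 fold changes of the pair reverse. mt-Atp6 over mt-Co3, a pair of direct neighbours, averaged 1.30 ± 0.297 and 1.44 ± 0.197 and overlapped (exact permutation p = 0.5).

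Nuclear genes make the partner subunits of these proteins, and their values lay on both sides of 0. Of 9 nuclear complex III genes, limma called 0. At an unadjusted p below 0.05 there were 5 higher and 3 lower (5.7% and 8.43% of all genes tested), while DESeq2 called 4 higher and 3 lower (2.21% and 3% of all genes tested). Small subunits were on the higher side: Uqcrb, which sits next to cytochrome b, had mean normalized counts of 28808 ± 3219 in controls, and 60450.2 ± 7684 in Terf1_flox libraries (SD, n = 3 each; log2 fold change 1.07 ± 0.15). On the lower side were the core proteins Uqcrc1 (−1.42 ± 0.31) and Uqcrc2 (−1.45 ± 0.31) and cytochrome c1, Cyc1, which passes electrons to cytochrome c (8654 ± 1183 and 4092 ± 745 normalized counts, log2 fold change −1.09 ± 0.21). The limma adjusted p of these 4 ran from 0.0805 to 0.128. With GC content and length corrected, Uqcrb was at 0.33, Uqcrc1 at −1.38, Uqcrc2 at −1.50 and Cyc1 at −0.91. The median of the 9 genes was 0.49, and 0.16 with that correction. Uqcrfs1, the Rieske iron-sulphur protein that reduces cytochrome c1, was at −0.01 ± 0.20.

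Of 14 tested nuclear complex IV genes, limma called 0. An unadjusted p below 0.05 was reached by 8 higher and 0 lower genes (5.7% and 8.43% of all genes tested). DESeq2 called 7 higher (2.21% of all genes tested). The median log2 fold change was 0.78, and 0.42 with GC content and length corrected. Cox7b (1.10 ± 0.17), Ndufa4 (1.06 ± 0.17), Cox6c (0.98 ± 0.16) and Cox7c (0.88 ± 0.14), all small accessory subunits, had the lowest p on the higher side (limma adjusted p = 0.0814). With that correction these 4 were at 0.69, 0.37, 0.66 and 0.34. Cox5a was the only gene below 0, at −0.10 ± 0.20.

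Of 18 nuclear complex V genes, limma called 0. An unadjusted p below 0.05 was reached by 10 higher and 3 lower genes (5.7% and 8.43% of all genes tested). DESeq2 called 6 higher and 2 lower (2.21% and 3% of all genes tested). Their median log2 fold change was 0.47, and 0.37 with GC content and length corrected. The lowest p on the higher side belonged to Atp5md (1.17 ± 0.17), Atp5j (0.87 ± 0.13) and Atp5l (0.95 ± 0.18). The inhibitor Atpif1, which blocks ATP hydrolysis, was at 0.64 ± 0.15. The 3 genes below 0 were Atp5b (−1.23 ± 0.15) and Atp5a1 (−0.87 ± 0.16), the beta and alpha subunits of the catalytic head, and Atp5d (−0.82 ± 0.27), the delta subunit of the central stalk, with limma adjusted p from 0.0742 to 0.234. The other central stalk genes, named after their values were seen, were above 0 (Atp5c1 0.37 ± 0.19, Atp5e 0.70 ± 0.21).

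**Figure D5:**
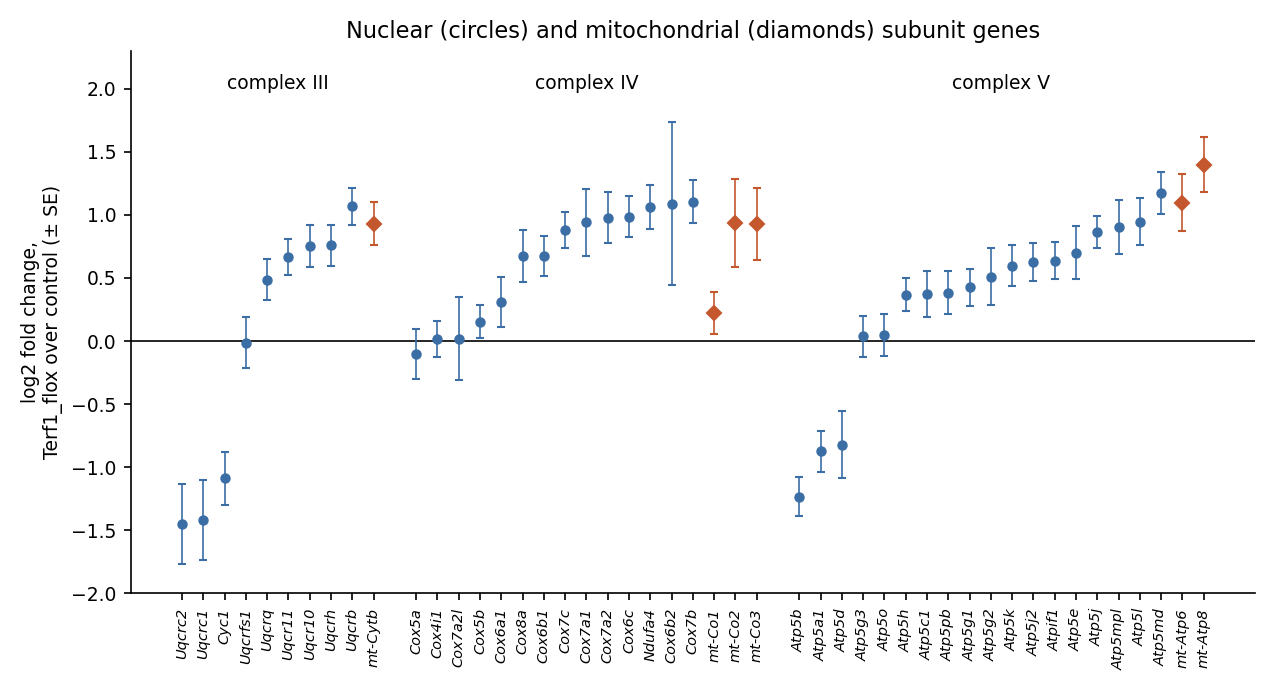
Log2 fold change (Terf1_flox over control) with its standard error for the tested nuclear subunit genes of complexes III, IV and V (blue circles, sorted within a complex) and the 6 mitochondrial genes (red diamonds). Uqcrc2, Uqcrc1, Cyc1, Atp5b, Atp5a1 and Atp5d lie below −0.8, and all mitochondrial genes except mt-Co1 lie above 0.9.

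Assembly factors of complexes III to V were split, with 15 of 27 above 0 and a median of 0.19. With GC content and length corrected the median was −0.076. limma called 0, and DESeq2 called 3 higher and 2 lower (2.21% and 3% of all genes tested). At an unadjusted p below 0.05 there were 6 higher and 4 lower (5.7% and 8.43% of all genes tested). Cox17, the copper chaperone of complex IV, was at 0.68 ± 0.20, and Fmc1, an ATP synthase assembly factor, at 0.58 ± 0.14. Cox10, which makes the haem precursor for the mt-Co1 protein, averaged 608 ± 219 normalized counts in controls and 128 ± 47.8 in Terf1_flox libraries (log2 fold change −2.24 ± 0.50, limma adjusted p = 0.128, DESeq2 adjusted p = 0.00196).

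Genes that transcribe and copy mitochondrial DNA gave 3 higher and 1 lower of 18 at an unadjusted p below 0.05 (5.7% and 8.43% of all genes tested). Their median was −0.13, limma called 0, and DESeq2 called 2 higher (2.21% of all genes tested). The mitochondrial single-stranded DNA-binding protein Ssbp1 averaged 2630.3 ± 449.9 in controls and 5045 ± 655 in Terf1_flox libraries (0.95 ± 0.23, limma adjusted p = 0.142). The mitochondrial RNA polymerase Polrmt was low, at 144 ± 17.1 and 82.5 ± 83.0 normalized counts (SD, n = 3 each), and its groups overlapped. Of 21 genes for the processing and stability of mitochondrial RNA, 2 were higher and 1 lower at an unadjusted p below 0.05. These shares are near those of all genes tested (5.7% and 8.43%). The median was −0.39, limma called 0, and DESeq2 called 1 higher (2.21% of all genes tested).

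Slirp and Lrpprc, which form the complex that stabilises mitochondrial mRNAs, had differences of opposite sign. Slirp averaged 1236 ± 90.1 and 2665 ± 400.5 normalized counts (log2 fold change 1.10 ± 0.24, limma adjusted p = 0.128, DESeq2 adjusted p = 0.00193). Lrpprc averaged 912 ± 201 and 448 ± 146 (−1.05 ± 0.38, limma adjusted p = 0.273, DESeq2 adjusted p = 0.139). Both were without overlap between groups. The poly(A) polymerase Mtpap, which adds the tails of mitochondrial mRNAs, was at −1.11 ± 0.64 (limma adjusted p = 0.472) and at −0.80 in DESeq2.

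Among 6 regulators of mitochondrial biogenesis, 0 passed in limma, edgeR or DESeq2 and 0 had an unadjusted limma p below 0.05, with a median log2 fold change of 0.54. The coactivator Ppargc1a averaged 4792 ± 248 and 6367 ± 1045 (0.40 ± 0.19) without overlap. Of 11 genes often used as measures of mitochondrial mass, 9 were below 0, with a median of −0.67. limma called 0 of them, an unadjusted p below 0.05 was reached by 6 lower genes (8.43% of all genes tested), and DESeq2 called 4 lower (3% of all genes tested). The lowest p belonged to prohibitin, Phb (−1.33 ± 0.25), the outer membrane channel Vdac1 (−1.14 ± 0.25), the chaperonin Hspd1 (−2.03 ± 0.45) and the import channel Timm23 (−0.76 ± 0.19), with limma adjusted p from 0.0945 to 0.149.

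The nuclear-encoded genes whose values followed the mean of the 6 most closely were named by the root mean square difference of centred log2 profiles over the 6 libraries, among 10739 genes with a mean of at least 50. They were Olfr63 (0.0329), Chaserr (0.0708), Mblac2 (0.0735), Cox7a1 (0.0947) and Rpl32 (0.102). By the same measure mt-Atp6 was nearest the mean of the 6 (0.138) and mt-Co1 farthest (0.408). Cox7a1, an isoform of a complex IV subunit, held 1966, 1787 and 1282 normalized counts in controls and 3453, 2598 and 3550.1 in Terf1_flox libraries. The 6 points of each profile fall in 2 groups, so a small difference mostly records a like group difference.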

How the data were processed

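RNA-seq values came from 3 control and 3 Terf1_flox libraries of polyadenylated RNA. The authors deposited normalized counts, a signal that divides the reads of each library by 1 factor and does not account for gene length. Per the submitters' processing notes, DESeq2 and build GRCm39 were used; the aligner, the counter and the annotation were not given in the sources used here. Divided by the step of its library, every value came out whole (100% of values, tolerance 0.01), so whole reads were recovered for edgeR (4.0.16) and DESeq2 (1.42.0).

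The main test was limma (3.58.1, R 4.3.3; empirical Bayes with trend) on log2(normalized count + 1) for 14822 genes whose mean reached 10, two-sided, with Benjamini-Hochberg adjustment over all of them. A log2 value is given ± SE. Fold changes on this scale can understate those of low genes. They can also overstate them where a single library lies near 0, as for Polrmt (−2.26, against −0.79 in DESeq2). Shares and ratios used exact permutation tests over libraries. The script was tested on simulated data. No molecular identifiers are named in the sources used here, so reads are not independent molecules.

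Transcript sequences, lengths and GC content came from GENCODE M21 (GRCm38; 97.6% of the table's genes matched by symbol). No coordinates are given, since the builds differ. Copies were found with blastn (2.17.0), near-identical meaning at least 95% identity over at least 100 bases. Named genes were the 6 genes, Terf1, annotated copies, up to 4 genes with the lowest limma p per direction and list, and the 5 most similar profiles; the text gives some of them. The genes and lists were chosen with earlier results of these data known. Alternatives were other pseudocounts, filters and scalings, a replicate block, Xist as covariate (both sexes were used), GC and length correction by splines, edgeR, DESeq2 and leaving out each library.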

Additional observations from a re-analysis of the deposited data

How the results depend on the processing

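limma called 0 of all genes tested with the main settings, 45 with equal totals, 10 with equal totals of the genes outside mitochondrial DNA, 8 with quantile normalization and 132 with a mean of at least 50, and DESeq2 called 772. Of the 6 genes, 3 passed with a mean of at least 50 (mt-Cytb, mt-Atp6 and mt-Atp8) and 4 in DESeq2 (these and mt-Co3); in the other settings 0 passed. Over all genes tested the median log2 fold change was −0.077 with the deposited scaling, −0.24 with equal totals, 0.04 with equal upper quartiles and 0.06 with quantile normalization, and that of the 6 genes was 0.93, 0.76, 1.05 and 0.74. The median of the 6 was 0.77 to 1.17 when each library was left out, with 0 genes called, and 0.19 with GC content and length corrected, with or without the replicate block. mt-Co1 turned to −0.31 with quantile normalization and to −0.082 with the GC content and length correction, and mt-Atp8 to −0.11 with that correction; the replicate block left both corrected values as they were. Same-numbered libraries did not deviate together (correlations −0.0486, 0.000129 and −0.00694 across genes). With 3 libraries per group these correlations cannot settle whether the numbers pair them. With the replicate block 0 genes were called, and the read share of the 6 genes differed by 4.16 points (exact permutation p = 0.25) and the log2 ratio to complex I by 0.10.

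With each library left out, the difference in read share ran from 3.32 to 4.75 points, the log2 ratio to complex I from −0.23 to 0.34, the mt-Co1 share of mitochondrial mRNA reads from −5.14 to −3.2 points and the mt-Atp8 share from 1.86 to 2.83. The differences in the shares of mt-Cytb (−1.62 to 6.81), mt-Co3 (−0.136 to 0.244) and mt-Co2 (−0.00749 to 0.017) changed sign. Divided by transcript length, these 3 were −0.798, −0.0728 and −0.00487. Adding the reads of near-identical copies changed no direction. The lowest gene, mt-Co2, had 736 to 1823 reads per library. As reads are not independent molecules, their number does not give the counting error.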

Other observations

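Annotated nuclear copies of these genes had their own low values. Gm10925, identical to mt-Atp6, held 29.0, 7.63 and 75.0 normalized counts in controls and 419, 59.5 and 325 in Terf1_flox libraries, and Gm29216, the copy of the last part of mt-Co1, held 49.3, 41.9 and 55.3 and 283, 75.9 and 278. In both, Terf1_flox replicates 1 and 3 were high and replicate 2 was much lower, below control replicate 3 for Gm10925 and above all controls for Gm29216. Neither passed in limma (adjusted p = 0.281 and 0.31) or DESeq2 (0.0523 and 0.0933). Gm13341, the diverged copy of mt-Co2, held 476, 589 and 333 in controls and 1013, 704 and 1020.1 in Terf1_flox libraries (log2 fold change 0.99 ± 0.37, limma adjusted p = 0.277), close to the 0.93 of mt-Co2 itself.

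Rows for mitochondrial tRNA genes, which lie between the mRNAs in the precursor, were also present. Of 13 tested, 13 had a log2 fold change above 0, and 7 were apart between groups, all higher in Terf1_flox libraries. These values are not corrected for GC content and length. The lowest tested row averaged only 7.73 normalized counts in controls and 15.0 in Terf1_flox libraries. Over all 14822 genes tested, 6991 lay above 0 and 10.3% were apart and higher. Both genes named here lie on the strand opposite their neighbouring mRNA, and whether counting used strand was not given in the sources used here. mt-Tp, next to the mt-Tt gene that follows mt-Cytb, had a mean of 2449 in controls against 5521 (log2 fold change 1.18). mt-Ts1, directly after mt-Co1, averaged 9909 and 13096 (0.44) and overlapped between groups. These 2 tRNA genes were chosen after their values were seen.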
